A study of Mus musculus with 7 samples.

Results

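Glutamate and aspartate tRNAs, the adaptors for the acidic amino acids, were followed through 7 RNA libraries of the mouse macrophage line RAW264.7. The members were the 10 rows of the deposited table that are named as tRNA-Glu or tRNA-Asp genes, of 224 tRNA gene rows. They form 3 of the 51 anticodon families: Asp-GTC with 4 rows, Glu-CTC with 3 rows and Glu-TTC with 3 rows. A family sum adds the rows that read the same codons. All 10 rows carry an isodecoder number of their own, the part of the name that marks a distinct tRNA body.

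RNA was sequenced from whole cells and from the extracellular vesicles (EVs) that they shed into the medium, using a template-switching group II intron reverse transcriptase. Cells carried a non-silencing hairpin (shNS) or a hairpin against Dis3l2 (shDis3l2), an exoribonuclease that trims uridylated RNA from the 3' end. Further EVs came from shDis3l2 lines with added constructs: Vector (no insert), Dis3l2r (a Dis3l2 transgene that the hairpin does not target) and Dis3l2 D389N (a catalytically inactive form). All 7 groups received doxycycline at 1 ug/mL, and each had 1 library, so no group had replicates. The labels do not say whether a line is 1 clone, nor how strongly each transgene was expressed. EVs were banded on sucrose and treated with micrococcal nuclease, whereas rRNA depletion is stated for whole-cell RNA alone. Macrophage markers and Dis3l2 itself were not analysed here, since transcript rows carry identifiers without gene names.

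Transfer RNAs are made by RNA polymerase III from many dispersed gene copies and are charged with their amino acid by a matching synthetase. tRNA-Asp carries a queuosine-type wobble base and is methylated by Dnmt2 in its anticodon loop, and the TTC isoacceptor of tRNA-Glu carries a thiolated wobble uridine. tRNA-Glu and tRNA-Asp are both cleaved by stress-induced ribonucleases in mammalian cells, and fragments of tRNA-Glu are often found in extracellular RNA. RefSeq (GRCm38.p6) lists 12 Glu-CTC, 8 Glu-TTC and 16 Asp-GTC nuclear genes on 12 chromosomes, each 72 bases long, so counts of the 3 families can be compared without a length correction. Of these, 4 Glu-CTC and 5 Asp-GTC genes lie intermixed on chromosome 1 between 171037029 and 171103114, a span of 66.1 kb. RefSeq symbols and the names in the table do not map to each other, so no single row was placed in the genome.

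Depth ranged from 13439408 to 37041326 estimated counts on whole-RNA rows, and the Glu and Asp rows held 336184 to 1338387 of them. CPM below is a library's count scaled to a fixed whole-RNA total, a relative level. In bulk libraries, less of an RNA per cell or vesicle and more of every other RNA cannot be told apart. Together the 10 rows held 4.33% to 5.72% of whole-RNA counts in EVs, against 1.14% in shNS cells and 1.04% in shDis3l2 cells. The sum of all tRNA rows was likewise higher, with 70.2% to 76.9% of whole-RNA counts in EVs, against 13.7% in shNS and 9.09% in shDis3l2 cells. Set against tRNA counts alone the 10 rows held less in EVs, 5.63% to 7.64%, than in the 2 cell libraries, 8.30% and 11.4%. This gap depends on tRNA-Gly-TCC-1-1 in the denominator. Without that row, tRNA counts fell from 17760733 to 13523302 in shNS EVs and from 5083653 to 4677764 in shNS cells. The EV and cell shares of the 10 rows then overlapped.

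Glu-CTC was the most abundant of the 3 families in every library. Its level was 38263 CPM in shNS EVs, 26741 in shDis3l2 EVs, 27116 in Vector EVs, 34835 in Dis3l2r EVs and 39852 in D389N EVs. In cells it was 5711 CPM with shNS and 6681 with shDis3l2. Glu-CTC ranked between 4th and 7th of 51 families by counts in EVs, 5th in shNS cells and 2nd in shDis3l2 cells. The lowest EV library lay 4.00-fold above the higher cell library. Lack of overlap was common: of 48 families with at least 100 counts in every library, 83.3% had all EV libraries above both cell libraries in CPM and 10.4% had all below. Among EVs, the 2 lowest Glu-CTC values in CPM belonged to the 2 knockdown lines without a Dis3l2 transgene. Scaled to counts on exon pieces instead, Dis3l2r EVs fell below Vector EVs. How many other families follow the CPM order was not counted.

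Glu-TTC, which reads the other glutamate codon by its modified uridine, stood at 8181 CPM in shNS EVs and 6332 in shDis3l2 EVs. Vector EVs held 6129 CPM, Dis3l2r EVs 8689 and D389N EVs 9589, against 3048 in shNS cells and 2731 in shDis3l2 cells. EVs were again above cells without overlap, as in most families, and the lowest EV library exceeded the higher cell library by 2.01-fold. As for Glu-CTC, D389N EVs were highest and the shDis3l2 and Vector EVs were the 2 lowest in CPM. Scaled to counts on exon pieces, Dis3l2r EVs again fell below Vector EVs.

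In CPM, Asp-GTC had the narrowest range of the 3 families in EVs and the widest in cells. It stood at 10104 CPM in shNS EVs, 10433 in shDis3l2 EVs, 10090 in Vector EVs and 9877 in Dis3l2r EVs, and at 7715 in D389N EVs. In cells it was 2636 CPM with shNS and 983 with shDis3l2, a 2.68-fold gap between the 2 cell libraries. The size of this gap depends on the totals used. Without the most abundant cell transcript, the whole-RNA total fell from 37041326 to 29890792 counts in shNS cells. In shDis3l2 cells it fell from 32342600 to 17443597. As a share of tRNA counts Asp-GTC held 1.92% in shNS and 1.08% in shDis3l2 cells. Glu-CTC held 4.16% and 7.35%, a gap of similar fold the other way. Over EVs the SD of log2 CPM was 0.18 for Asp-GTC, the 9th smallest of 48 families with at least 100 counts in every library, against 0.27 for Glu-CTC, 0.29 for Glu-TTC and a median of 0.31.

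**Figure D1:**
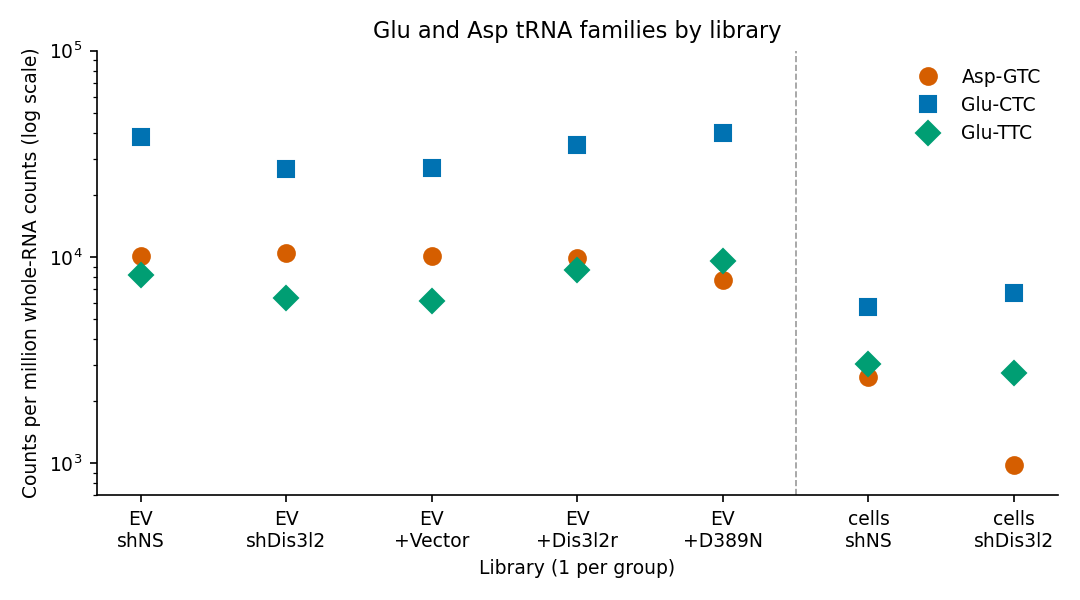
Level of the Asp-GTC, Glu-CTC and Glu-TTC families in 5 EV and 2 whole-cell libraries, in CPM of whole-RNA counts on a log axis (1 point is 1 library). All EV points lie above all cell points of the same family on this scale, as for 83.3% of families; as a share of tRNA counts, Glu-TTC is lower in EVs and the other two overlap.

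The order of the families changed between libraries. Asp-GTC exceeded Glu-TTC in the shNS, shDis3l2, Vector and Dis3l2r EVs, whereas Glu-TTC exceeded Asp-GTC in D389N EVs and in both cell libraries. Over the 5 EV libraries Asp-GTC averaged 9644 ± 1096 CPM (SD, n = 5 genotypes) and Glu-TTC 7784 ± 1507 CPM, and their ranges overlapped. Glu-CTC, at 33361 ± 6147 CPM, did not overlap with either.

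The first comparison was between EVs and cells. All 3 families were higher in EVs when counts were scaled to the whole-RNA total, in an edgeR quasi-likelihood fit of 5 EV against 2 whole-cell libraries with the Dis3l2 class as covariate. The log2 fold change was 2.57 for Asp-GTC (SE 0.471, adjusted p = 0.000251), 2.43 for Glu-CTC (SE 0.413, adjusted p = 0.000133) and 1.45 for Glu-TTC (SE 0.393, adjusted p = 0.00447). Of the 494 rows of the family table, 20.2% were called higher and 60.5% lower, and the median was -4.78. Of 47 other anticodon families tested, 39 were higher and 3 lower with a median of 2.64, so Asp-GTC and Glu-CTC lay near that median and Glu-TTC below it. Asp-GTC stood at 1.92 without the shDis3l2 cell library and at 3.26 without the shNS cell library, and stayed called. In the 4 parental libraries alone, with the line as covariate, Glu-TTC stood at 1.32 and was not called (adjusted p = 0.0927). Libraries of a compartment are different genotypes, so these p-values measure the spread between genotypes, which includes any effect of genotype. With tRNA totals as library sizes the 3 values turned to -0.12, -0.34 and -1.30 (adjusted p = 0.779, 0.435 and 0.00604), and with exon-piece totals to -0.90, -0.35 and -1.51, none of them called.

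Among single rows, 7 of 10 passed the filter on low counts and 6 were called higher and 0 lower in EVs (6 at an unadjusted p under the threshold, and 6 by DESeq2), against 31.5% higher and 47.7% lower over all 641 rows tested. Most tRNAs were higher too, with 39 of 47 other anticodon families called higher and 3 lower in the family fit. The largest value was that of tRNA-Glu-TTC-3-1, at 4.23 (SE 0.561, adjusted p = 1.57e-05). It was followed by tRNA-Asp-GTC-1-1 at 2.65 (SE 0.483, adjusted p = 0.000245) and tRNA-Glu-CTC-1-1 at 2.43 (SE 0.433, adjusted p = 0.000202). tRNA-Asp-GTC-2-1 stood at 1.54 (SE 0.503, adjusted p = 0.0138) and tRNA-Glu-TTC-1-1 at 1.52 (SE 0.401, adjusted p = 0.00389). With tRNA totals as library sizes 1 member row was called higher and 3 lower; without the shDis3l2 cell library 4 were called higher.

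The 4 other rows had too few reads to follow. tRNA-Glu-CTC-2-1 had between 3 and 28 counts in a library, tRNA-Asp-GTC-4-1 between 0 and 17, tRNA-Glu-CTC-5-1 between 0 and 2, and tRNA-Asp-GTC-3-1 either 0 or 1. Of these, tRNA-Glu-CTC-2-1 alone was tested in the fit of EVs against cells, at 2.38 (SE 1.25, adjusted p = 0.0946).

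The 3 families did not move between EVs and cells by the same amount in both lines. In the shNS pair of libraries the log2 ratio of EVs to cells was 2.74 for Glu-CTC (95% interval 2.74 to 2.75), 1.94 for Asp-GTC (1.93 to 1.95) and 1.42 for Glu-TTC (1.41 to 1.44). In the shDis3l2 pair the order changed, with Asp-GTC at 3.41 (3.39 to 3.43), Glu-CTC at 2.00 (1.99 to 2.01) and Glu-TTC at 1.21 (1.20 to 1.23). Among 49 families measured, Asp-GTC went from rank 29 to rank 13 from the highest, and Glu-CTC from rank 11 to rank 38. These intervals cover counting error alone, and with 1 library a side no test of the difference between lines was possible. All 6 abundant member rows were at least 2-fold higher in both pairs, and none was lower. Of all rows measured, 32% were higher and 59.5% lower in the shNS pair, and 33.1% higher and 58.1% lower in the shDis3l2 pair. Most tRNA families passed the same rule. Of 49 families, 42 were higher and 4 lower in the shNS pair, with the median family at 2.135. In the shDis3l2 pair 43 were higher and 1 lower, with the median family at 2.835. With TMM scaling 4 of the 6 passed in each pair, and with tRNA totals 1 was higher and 2 lower in the shNS pair and 0 higher and 2 lower in the shDis3l2 pair.

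The make-up of each family does not depend on how libraries are scaled. Glu-CTC held 82.4% of Glu counts in shNS EVs, 80.9% in shDis3l2 EVs, 81.6% in Vector EVs, 80.0% in Dis3l2r EVs and 80.6% in D389N EVs. It held 65.2% in shNS cells and 71.0% in shDis3l2 cells. The EV libraries lay close together and all above both cell libraries, at a mean of 81.1% ± 0.909 (SD, n = 5) against 68.1%. The exact two-sided permutation test over libraries gave p = 0.0952, the smallest that 5 against 2 allows (adjusted p = 0.214 over 9 such quantities). How often anticodon shares of other amino acids separate in this way was not tested. For shares of single tRNA rows in their family, lack of overlap was common, at 66.2% of 145 rows.

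**Figure D2:**
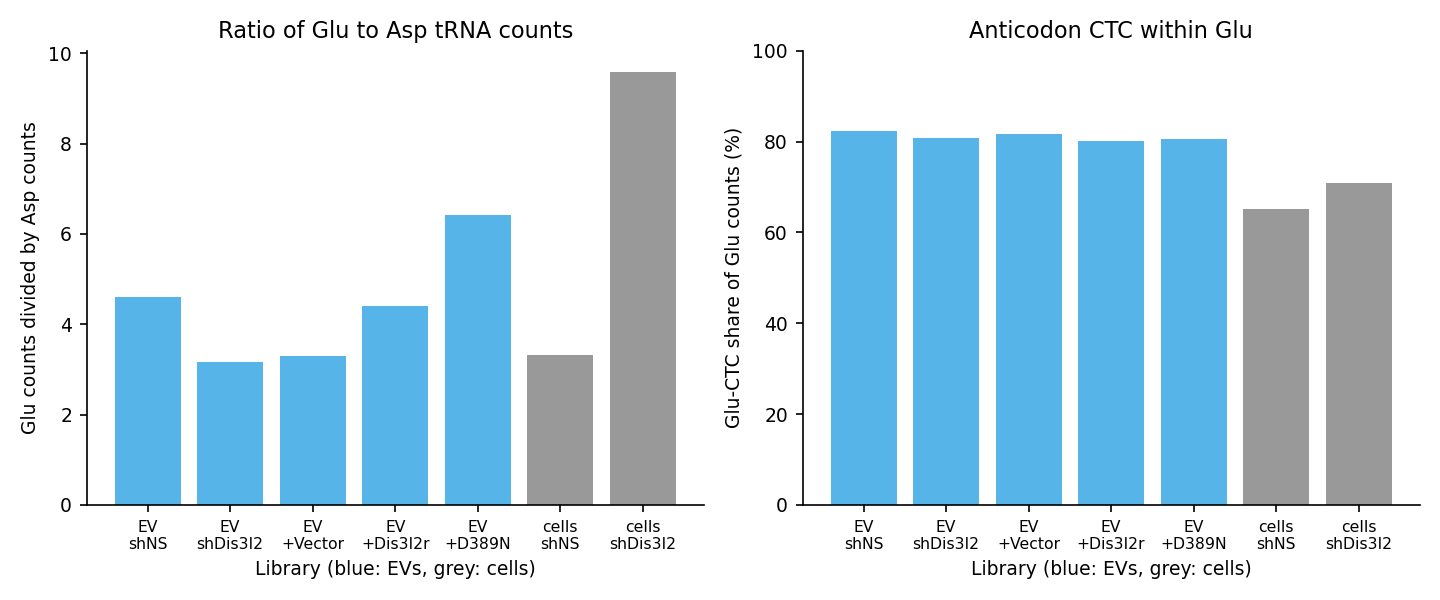
Left, Glu counts divided by Asp counts in each library; right, share of Glu counts held by anticodon CTC in percent (blue bars are EVs, grey bars are cells, 1 library each). The ratio runs from 3.17 to 9.58, whereas the CTC share is 80.0% to 82.4% in EVs and 65.2% and 71.0% in cells.

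Within Glu-TTC the rare row tRNA-Glu-TTC-3-1 had the largest fold difference in share between EVs and cells. It held 6.50% of the family in shNS EVs, 5.28% in shDis3l2 EVs, 8.36% in Vector EVs, 5.24% in Dis3l2r EVs and 5.62% in D389N EVs. In cells its share was 0.605% with shNS (exact 95% interval 0.561% to 0.652%) and 1.19% with shDis3l2 (1.12% to 1.26%). The groups did not overlap, and the EV mean was 6.93 times the cell mean (exact permutation p = 0.0952, adjusted p = 0.214). Of 145 tRNA rows with at least 1000 counts in families with several such rows, 66.2% had shares that did not overlap between EVs and cells. In CPM this row went from 18.4 and 32.4 in cells to between 334 and 539 in EVs.

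The major Glu-TTC rows overlapped between EVs and cells, although in percentage points tRNA-Glu-TTC-2-1 differed more than tRNA-Glu-TTC-3-1, by -7.87 against 5.31 (EV minus cell). tRNA-Glu-TTC-1-1 held 45.9% to 49.7% of the family in EVs, within the 40.9% and 50.4% of the cell libraries (exact permutation p = 0.571, adjusted p = 0.571). tRNA-Glu-TTC-2-1 held 42.4% to 48.5% in EVs, against 58.5% in shNS cells and 48.4% in shDis3l2 cells (exact permutation p = 0.190, adjusted p = 0.343). Row 2-1 exceeded row 1-1 in shNS cells and, by less, in D389N EVs. How Salmon divides reads between such similar rows can move these shares, and that was not tested.

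The minor aspartate row went the other way from the minor Glu-TTC row. tRNA-Asp-GTC-2-1 held 5.63% of Asp-GTC counts in shNS EVs, 5.08% in shDis3l2 EVs, 5.11% in Vector EVs, 4.34% in Dis3l2r EVs and 3.86% in D389N EVs. It held 9.50% in shNS cells and 10.6% in shDis3l2 cells. The groups did not overlap, as for 66.2% of 145 tRNA rows, with a cell mean 2.09 times the EV mean (exact permutation p = 0.0952, adjusted p = 0.214). The rest of the family was tRNA-Asp-GTC-1-1, at 94.4% to 96.1% in EVs and 89.4% to 90.5% in cells. Glu-CTC had no such split, since tRNA-Glu-CTC-1-1 held 99.997% to 99.999% of its counts.

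**Figure D3:**
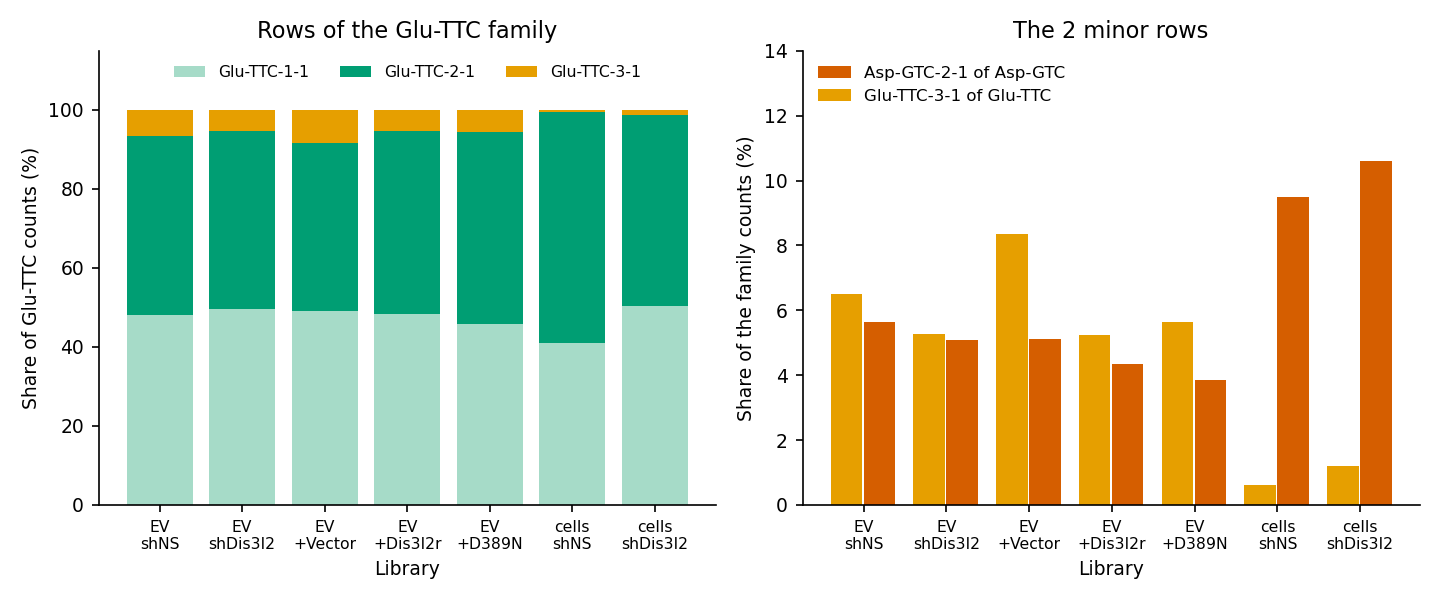
Left, share of Glu-TTC counts held by each of its 3 rows; right, share of tRNA-Glu-TTC-3-1 in Glu-TTC and of tRNA-Asp-GTC-2-1 in Asp-GTC, in percent, for each library. The Glu-TTC-3-1 share is 5.24% to 8.36% in EVs and 0.605% and 1.19% in cells, and the Asp-GTC-2-1 share is 3.86% to 5.63% in EVs and 9.50% and 10.6% in cells.

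As a share of tRNA counts, Glu-TTC was the family of the 3 that separated EVs from cells. It held 0.797% to 1.28% of tRNA counts in EVs and 2.22% and 3.00% in cells (exact permutation p = 0.0952, adjusted p = 0.214). On this scale 31.2% of families lay below the cells in all EV libraries and 25% above. Glu-CTC held 3.53% to 5.33% in EVs, against 4.16% in shNS cells and 7.35% in shDis3l2 cells (exact permutation p = 0.381, adjusted p = 0.490). Asp-GTC held 1.03% to 1.47% in EVs, against 1.92% and 1.08% in cells (exact permutation p = 0.476, adjusted p = 0.536). For Glu-CTC the shNS cell value lay within the EV range and the shDis3l2 value above it. For Asp-GTC the shDis3l2 cell value lay within the EV range and the shNS value above it. Since the 2 cell libraries disagree, these shares cannot settle whether EVs and cells differ for either family.

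Knockdown of Dis3l2 in cells was compared next, with 1 library a side and TMM scaling (trimmed mean of M values). Asp-GTC was lower in shDis3l2 cells, with 31785 counts against 97643 and a log2 ratio of -1.16 (95% interval -1.18 to -1.14), rank 46 of 48 families. Glu-CTC stood at 0.49 (0.48 to 0.50), rank 3 of 48, and Glu-TTC at 0.11 (0.10 to 0.12), rank 7. The median family was at -0.69. The call on Asp-GTC was lost, at -0.83 with tRNA totals and -0.84 without the most abundant cell transcript, although the value stayed below 0 in each scaling. Glu-TTC turned to -0.16 with unscaled totals, and with exon-piece totals both Glu families were below 0.

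By row, 1 member was higher and 1 lower in knockdown cells, of 6 measured, against 11.7% and 24% of all rows. tRNA-Asp-GTC-1-1 stood at -1.18 (-1.19 to -1.16) and tRNA-Glu-TTC-3-1 at 1.08 (0.94 to 1.22). The first fell short of 2-fold with tRNA totals (-0.85) and once the leading cell transcript was left out (-0.86), the second with unscaled totals (0.81), and exon-piece totals put it at -3.73. tRNA-Asp-GTC-2-1 was at -0.998 (-1.06 to -0.94), just inside the 2-fold limit. The ratio of Glu to Asp counts, free of scaling, was 3.32 in shNS cells and 9.58 in shDis3l2 cells. The shDis3l2 value was the highest of the 7 libraries.

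In EVs each of the 3 families lay on the other side of 0 from its value in cells, as did 39.6% of 48 families. This held for neither Glu family with exon-piece totals, nor for Glu-TTC with unscaled totals. Glu-CTC stood at -0.42 (-0.43 to -0.42) in shDis3l2 against shNS EVs and Glu-TTC at -0.28 (-0.29 to -0.27), ranks 44 and 40 of 49. Asp-GTC stood at 0.14 (0.13 to 0.15). None reached 2-fold and 0 of 6 member rows did, against 7.06% higher and 4.14% lower over all rows. The ratio of Glu to Asp counts was 4.60 in shNS EVs and 3.17 in shDis3l2 EVs.

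Vector EVs were also set against those of the parental knockdown line. The values were 0.06 for Glu-CTC, -0.01 for Glu-TTC and -0.01 for Asp-GTC, ranks 36, 41 and 42 of 49, below the median family at 0.30, with 0 of 6 rows past 2-fold against 8.91% and 15% of all rows. The sign of these small values depended on the scaling. The ratio of Glu to Asp counts was 3.29 in Vector EVs. Among the 6 rows the largest value was that of tRNA-Glu-TTC-3-1, at 0.65 (0.61 to 0.70), short of 2-fold.

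Re-expression of Dis3l2 was set against Vector. With Dis3l2r, Glu-TTC stood at 0.43 (0.42 to 0.45), rank 2 of 49 families, and Glu-CTC at 0.29 (0.29 to 0.30), rank 5, while the median family was at -0.24. Both turned negative with exon-piece totals alone, at -0.46 and -0.60. Asp-GTC stood at -0.10 (-0.11 to -0.09), or 0.10 with tRNA totals. The ratio of Glu to Asp counts was 4.41 in Dis3l2r EVs, against 3.29 in Vector EVs and 4.60 in shNS EVs. None of the 6 rows passed 2-fold, against 24.7% higher and 7.38% lower over all rows.

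With the inactive D389N protein the glutamate families were higher still. As a share of tRNA counts this step was small. Glu-CTC held 5.33% in D389N EVs against 4.96% in Dis3l2r EVs, and Glu-TTC 1.28% against 1.24%. Against Vector, Glu-TTC stood at 0.90 (0.89 to 0.91), rank 6 of 49, and Glu-CTC at 0.81 (0.81 to 0.81), rank 9. Asp-GTC stood at -0.13 (-0.14 to -0.12), rank 34, and the median family at 0.13. tRNA-Glu-TTC-2-1 alone passed 2-fold, at 1.09 (1.08 to 1.11), against 10.8% of all rows higher and 12.4% lower; it stood at 0.84 with unscaled totals, 0.88 with tRNA totals and 0.67 with exon-piece totals, under 2-fold in each. The ratio of Glu to Asp counts was 6.41, the highest of the EV libraries.

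D389N and Dis3l2r EVs were compared directly. Glu-CTC stood at 0.43 (0.42 to 0.43) and Glu-TTC at 0.37 (0.36 to 0.38), near the median family at 0.36, whereas Asp-GTC at -0.12 (-0.14 to -0.11) ranked 47 of 49. With DESeq2 size factors Asp-GTC stood at 0.04. No row passed 2-fold, against 2.64% higher and 21.9% lower over all rows. The Dis3l2r and D389N comparisons share the Vector library, and each value rests on 1 library a side.

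**Figure D4:**
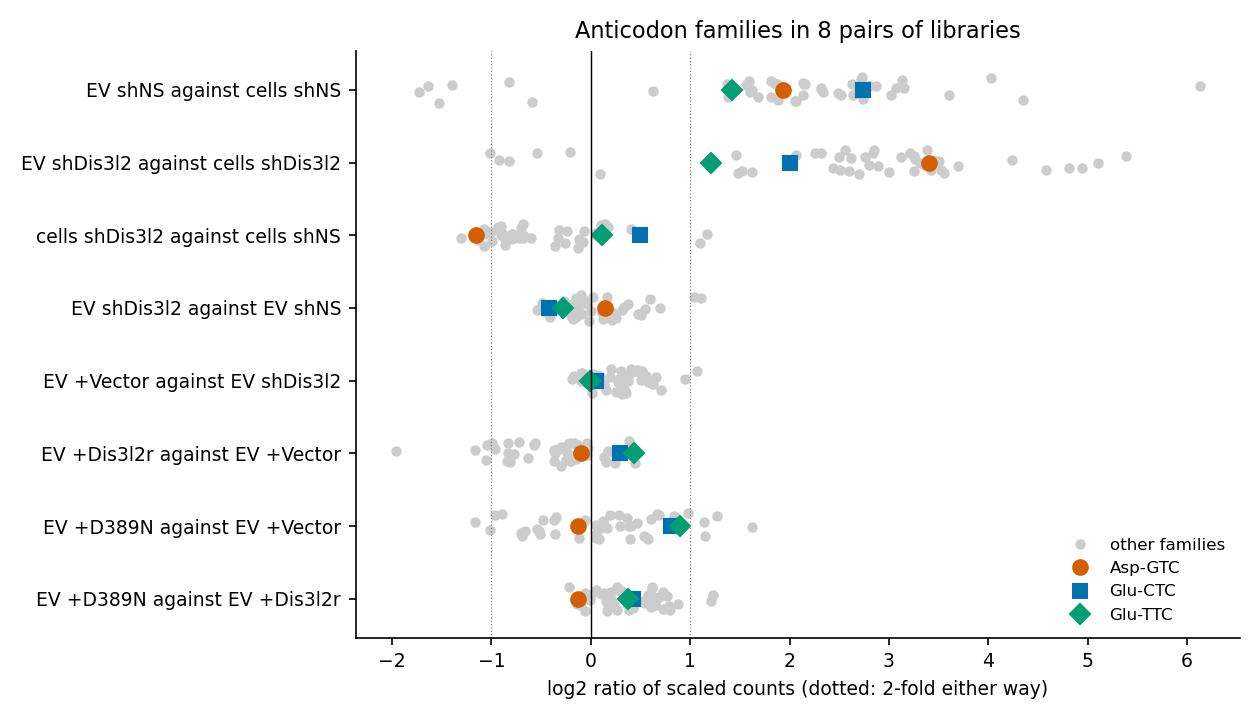
log2 ratio of scaled counts of each anticodon family in 8 pairs of libraries, with the 3 Glu and Asp families in colour and the other families in grey (vertical jitter is random; dotted lines mark 2-fold). Both Glu families lie right of 0 and Asp-GTC just left of it in the Dis3l2r and D389N pairs against Vector, a split that for Dis3l2r is lost with exon-piece totals, with tRNA totals and once the leading cell transcript is left out; in knockdown cells Asp-GTC lies at -1.16 and Glu-CTC at 0.49.

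Taking the EV libraries by assigned Dis3l2 class, the 3 without active enzyme (shDis3l2, Vector and D389N) were set against the 2 with it (shNS and Dis3l2r). The edgeR fit called 0 of 3 families and 0 of 7 member rows, with 0 at an unadjusted p under the threshold and 0 by DESeq2. Over all 575 rows 0% were called higher and 0.174% lower. The log2 fold change was 0.04 for Glu-CTC (SE 0.367, adjusted p = 0.959), 0.07 for Glu-TTC (SE 0.386, adjusted p = 0.945) and 0.14 for Asp-GTC (SE 0.336, adjusted p = 0.857). Without the D389N library the Glu values were -0.30 for both families (adjusted p = 0.704 and 0.720). The ratio of Glu to Asp counts did not order the libraries by class either: it was 3.17, 3.29 and 6.41 without and 4.60 and 4.41 with active Dis3l2.

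Families that share a wobble modification or an enzyme with the acidic tRNAs were read beside them in the fit of EVs against cells. Of the 4 families with queuosine, Asp-GTC, Asn-GTT (1.75) and His-GTG (2.77) were higher in EVs and Tyr-GTA (-1.31; its spliced forms have rows of their own) was lower, with a median of 2.16. These lists stand beside the 39 of 47 other families that were higher, so a list with every family higher is near that background. The 3 families with a thiolated wobble uridine were all higher, at 1.45 for Glu-TTC, 3.27 for Gln-TTG and 3.80 for Lys-TTT. The 3 Dnmt2 targets were all higher, with Gly-GCC at 2.36 and Val-AAC at 1.91 beside Asp-GTC. The amide partners Gln-CTG (3.27), Gln-TTG and Asn-GTT were all higher as well, with a median of 3.27. By Dis3l2 class 0 families of any of these lists were called, and the medians lay between 0.19 and 0.47, against 0.36 over the 47 other families.

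Likeness was measured as the root mean square difference of log2 CPM, each family centred on its own mean over the 7 libraries, against 47 other families. Nearest to Asp-GTC were Arg-ACG (0.23), Ile-AAT (0.25) and His-GTG (0.27). Nearest to Glu-CTC were Gly-GCC (0.27), SeC-TCA (0.27) and Arg-CCT (0.30), and nearest to Glu-TTC were Ala-CGC (0.25), SeC-TCA (0.29) and Arg-CCT (0.44). The 2 Glu families differed by 0.47 from each other over all libraries. Over the 5 EV libraries alone they differed by 0.08, and each was the nearest family to the other; Glu-CTC and Asp-GTC then differed by 0.37. These are descriptions with no test. EV and cell libraries were prepared differently, so values over all 7 include that difference.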

How the data were processed

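Salmon, Novoalign, cutadapt and UMI-tools are named by the submitters' processing notes, with the builds mm10 and GRCm38. Their versions and order, and whether the 12 random adapter bases were used to remove duplicates, were not given in the sources used here. What the authors deposited was a single table whose values are estimated counts without scaling, over 580839 rows; 0 columns of samples were left unmapped. The 3894 whole-RNA rows (no exon, intron or UTR pieces) were used and rounded. The glutamate and aspartate rows and the lists read beside them were chosen with earlier results of these data known.

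edgeR 4.0.16 quasi-likelihood fits ran over all whole-RNA rows (filterByExpr, Benjamini-Hochberg, threshold 0.05), by row and with tRNA genes summed per anticodon. Scaling was by whole-RNA totals for EVs against cells and TMM otherwise. Dis3l2 class was assigned from genotype. Single pairs passed at 100 counts, 2-fold and an exact binomial 95% interval excluding 1. Shares have exact Clopper-Pearson intervals. Intervals cover counting error only. Permutation tests were exact and two-sided. DESeq2 1.42.0, R 4.3.3, Python 3.11.15, scipy 1.17.1 and matplotlib 3.10.9 were used. Fits were tested on simulated data. Alternatives were other scalings, DESeq2, count minimums of 20 and 500, no filter, other denominators and leaving out each library. Families were always named; rows were named with at least 1000 counts over the 7 libraries, the 5 largest called each way per fit, and the 3 largest each way per pair; rows under that minimum are named only to account for them.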

Additional observations from a re-analysis of the deposited data

Results flagged for a closer look

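Among the 5 EV libraries, D389N stood apart for aspartate in CPM. Asp-GTC was at 7715 CPM there and tRNA-Asp-GTC-1-1 at 7417 CPM. Each lay further below the next EV library than Dixon's 95% criterion allows (ratios of 0.795 and 0.818 against 0.71). The 2 items share most of their counts. They were 2 of 18 quantities examined, and chance flags about 1 in 20. As a share of tRNA counts Asp-GTC in D389N EVs was also the lowest, at 1.03%, without passing the criterion. How far D389N lay below other EVs depended on the scaling. Under TMM its log2 ratio for Asp-GTC was -0.13 against Vector EVs (rank 34 of 49 families). Against Dis3l2r EVs it was -0.12 (rank 47 of 49), and this value rose above 0 in some other scalings. The criterion was not applied to TMM-scaled levels.

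Between shDis3l2 and shNS libraries, each of the 3 families differed in opposite directions in cells and in EVs. The median family was at -0.69 in cells and -0.04 in EVs. Asp-GTC had a log2 ratio of -1.16 in cells and 0.14 in EVs, Glu-CTC 0.49 and -0.42, and Glu-TTC 0.11 and -0.28. With 1 library a side the difference was not tested. Of 48 families, 39.6% had opposite signs in the 2 pairs. The Glu-TTC value in cells was -0.16 with unscaled totals, and with exon-piece totals Glu-CTC was at -4.32 and Glu-TTC at -4.70, so these contrasts with EVs did not hold there.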

How the results depend on the processing

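The labels give no replicate numbers to pair by, but the 4 parental libraries pair by line, and with the line as covariate 2 families and 5 member rows were called higher in EVs. Summing gene rows of one isodecoder number gave no new value, since all 10 rows have their own. Other scalings moved the median of all rows in single pairs by up to -4.81 (exon-piece totals, knockdown cells; the shNS cell library has 27300 such counts); the cause of each change below was not tested. As shares of tRNA counts, the EV minus cell difference turned to 0.0891 percentage points for Asp-GTC without tRNA-Gly-TCC-1-1 in the denominator, and over all whole-RNA rows to 0.783 for Asp-GTC, 2.72 for Glu-CTC and 0.490 for Glu-TTC. Leaving out 1 library gave -0.607 to 0.233 for Asp-GTC (above 0 without shNS cells), -2.81 to 0.376 for Glu-CTC, -2.19 to 7.32 for the tRNA-Glu-TTC-1-1 share and -5.20 to 1.05 for the Glu to Asp ratio (Glu-CTC and the ratio above 0 without shDis3l2 cells, the TTC-1-1 share below 0 without shNS cells). The ratio from the leading rows alone, an alternative chosen after seeing the data, kept its sign.

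In the fit by Dis3l2 class, unscaled totals gave -0.086 for Asp-GTC, -0.23 for Glu-CTC and -0.20 for Glu-TTC; tRNA totals -0.12, -0.26 and -0.23; totals without the most abundant cell transcript -0.15, -0.28 and -0.26. Leaving out 1 library gave -0.30 to 0.17 for Glu-CTC and -0.30 to 0.23 for Glu-TTC. In the fit of EVs against cells, tRNA totals called 0 families higher and 1 lower, and 1 member row higher and 3 lower; exon-piece totals called 0 families and 0 member rows higher. The families stood at -0.12 for Asp-GTC, -0.34 for Glu-CTC and -1.30 for Glu-TTC with tRNA totals and -0.90, -0.35 and -1.51 with exon-piece totals; Glu-TTC stood at 1.32 in the 4 parental libraries alone, no longer called. By row, tRNA totals gave -0.0395 for tRNA-Asp-GTC-1-1, -0.34 for tRNA-Glu-CTC-1-1, -1.16 for tRNA-Asp-GTC-2-1 and -1.25 for tRNA-Glu-TTC-1-1, and exon-piece totals -0.83, -0.35, -1.81 and -1.32. Leaving out 1 library gave 1.92 to 3.26 for Asp-GTC, 2.23 to 2.68 for Glu-CTC and 1.33 to 1.51 for Glu-TTC, all called, and 4 to 6 member rows (4 without shDis3l2 cells).

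In shNS EVs against cells, tRNA totals left 1 member row higher and 2 lower and exon-piece totals 0 and 5. Asp-GTC stood at -0.51 and -2.54, Glu-CTC at 0.29 and -1.74, Glu-TTC at -1.03 and -3.06, tRNA-Asp-GTC-1-1 at -0.45 and -2.48, and tRNA-Glu-CTC-1-1 at -1.74 with exon-piece totals. In the shDis3l2 pair tRNA totals left 0 higher and 2 lower, with Asp-GTC at 0.44, Glu-CTC at -0.96, Glu-TTC at -1.75 and tRNA-Asp-GTC-2-1 at -0.62; Glu-TTC was 0.37 once the leading cell transcript was left out of the totals, and 0.74 under TMM. In knockdown cells, 0 rows were higher and 2 lower with unscaled totals, 0 lower with tRNA totals or without that transcript, and 0 higher and 6 lower with exon-piece totals. Asp-GTC stood at -0.83 and -0.84 with tRNA totals and without that transcript, Glu-TTC at -0.16 unscaled, and exon-piece totals gave -4.32 for Glu-CTC, -4.70 for Glu-TTC and -3.73 for tRNA-Glu-TTC-3-1.

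In EV pairs, a minimum of 20 counts gave 1 row higher and 1 lower for knockdown and 1 lower for Vector against shDis3l2. Exon-piece totals gave 1 higher for Vector against shDis3l2, 2 lower for Dis3l2r against Vector and 1 higher for D389N against Dis3l2r. For D389N against Vector, unscaled, tRNA, exon-piece and transcript-free totals gave 0. Vector against shDis3l2 turned to 0.12 for Asp-GTC and 0.12 for Glu-TTC with DESeq2 size factors, 0.38 for both with exon-piece totals, and -0.10 for Glu-CTC with tRNA totals. Dis3l2r against Vector turned to 0.10 (tRNA totals) and 0.0639 (without that transcript) for Asp-GTC, and to -0.60 for Glu-CTC and -0.46 for Glu-TTC with exon-piece totals. D389N against Dis3l2r turned to 0.0417 (DESeq2 size factors) and 0.44 (exon-piece totals) for Asp-GTC. Under other settings, 214 single values kept their direction and side of the threshold, 53 changed sign and 19 lost the call; 138 counts were equal to those reported, 10 differed by up to 1.5 times and 28 by more.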
